A study of Homo sapiens with 6 samples.

Results

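Integrin subunits were examined as 10 genes of MIA PaCa-2 cells, an established human pancreatic carcinoma line. The genes were 5 alpha subunits (ITGA2, ITGA3, ITGA5, ITGA6 and ITGAV) and 5 beta subunits (ITGB1, ITGB3, ITGB4, ITGB5 and ITGB8). They were taken by name from the 18268 rows of a gene expression table, and each of the 10 had 1 row. The ITGB3 row also carries the name EFCAB13, so its value cannot be assigned to either gene. The cells overexpressed the long noncoding RNA LINC00901 (n = 3 libraries) or carried the empty pCDH vector (n = 3 libraries), and both groups are the same line in the same medium. How LINC00901 was introduced and whether a line is a clone or a pool is not in the labels. Nor do they state that the replicates are independent cultures, and the p-values therefore reflect only library-to-library spread, which may be technical. No row names LINC00901, so the overexpression itself was not checked here.

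Integrins are cell-surface receptors made of 1 alpha and 1 beta subunit, and the combination sets the ligand. ITGB1 pairs with many alpha subunits. With ITGA5 it forms the classical fibronectin receptor, with ITGA3 or ITGA6 a laminin receptor and with ITGA2 a collagen receptor. ITGAV pairs with ITGB1, ITGB3, ITGB5 or ITGB8 to bind ligands that carry the arginine-glycine-aspartate motif, among them vitronectin, and ITGA6 pairs with ITGB4 in the hemidesmosomes of epithelial cells.

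Values are FPKM, a fragment count scaled to gene length and to the library's total, so levels of different subunits can be set side by side. FPKM summed to between 127768 and 128538 in the overexpression libraries and between 87162 and 88738 in the vector libraries. On log2(FPKM + 0.5), the median of the differences (overexpression minus vector) of the 9694 rows with a mean of at least 1 FPKM was 0.27. The medians of the libraries, which median centring removes, differed by 0.21. Changes are therefore also given relative to the median difference of 0.27. Of the 9694 rows, 37.4% were called higher and 11.9% lower in the overexpression libraries (limma, Benjamini-Hochberg adjusted p under 0.05). With each library centred on its own median these shares were 24.0% and 19.2%, with quantile normalization 19.2% and 20.9%, and with a trend on transcript length and GC content removed 22.3% and 17.1%. Of 10 epithelial markers, 5 had a mean of at least 1 FPKM, but the defining genes EPCAM, CDH1, ESRP1 and GRHL2 were at or near 0, with values of 0.14 FPKM or less in every library. KRT18 stood at 70.8 ± 14.0 FPKM in the overexpression libraries and 100.1 ± 7.97 FPKM in the vector libraries, and KRT19 at 24.0 ± 1.07 and 3.71 ± 1.95 FPKM (SD, n = 3 each). Summed mesenchymal markers ranged from 555 to 644 FPKM in the overexpression libraries and from 203 to 256 FPKM in the vector libraries, almost all of it VIM. The other members differed in direction. SNAI2 had means of 6.34 FPKM in the overexpression and 0.757 FPKM in the vector libraries, and ZEB1 3.12 and 3.06 FPKM. Means were lower in the overexpression libraries for CDH2 (0.227 and 0.457 FPKM), FN1 (0.490 and 1.27 FPKM) and TWIST1 (0.190 and 0.553 FPKM). Of 10 fibroblast markers 4 reached a mean of 1 FPKM (sums 177 to 202 against 191 to 207 FPKM), mostly COL3A1, while DCN and FAP were at or near 0. Of 12 leukocyte markers only the joined row EIF4A1;CD68;SENP3 did (sums 36.1 to 40.0 against 23.3 to 26.5 FPKM), with PTPRC listed at 0. Endothelial marker sums reached at most 0.71 FPKM in both groups, and platelet marker sums 1.06 FPKM in the overexpression libraries and 1.73 FPKM in the vector libraries. The part of other cell types in the integrin values was not tested.

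ITGB1 was the most abundant of the 10 subunits in both groups and ITGAV the second. ITGB1 had 54.12, 44.46 and 47.40 FPKM in the overexpression libraries, against 50.90, 48.29 and 69.28 FPKM in the vector libraries. Only 2.16% of all rows had a higher mean than ITGB1 in the overexpression libraries and 0.936% in the vector libraries. In the overexpression libraries the order from high to low was ITGB1, ITGAV, ITGA5, ITGA3, ITGB5, ITGA6, ITGB4, the joined ITGB3 row, ITGA2 and ITGB8, and the ranges of neighbours in this order did not overlap. In the vector libraries the joined ITGB3 row stood above ITGB4, and otherwise the order was the same. There the ranges overlapped between ITGA5 and ITGA3, ITGB5 and ITGA6, ITGB4 and ITGA2, and ITGA2 and ITGB8. Within libraries, ITGA5 was above ITGA3 in all 3 vector libraries, while the order in each of the other 3 pairs differed between libraries.

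**Figure D1:**
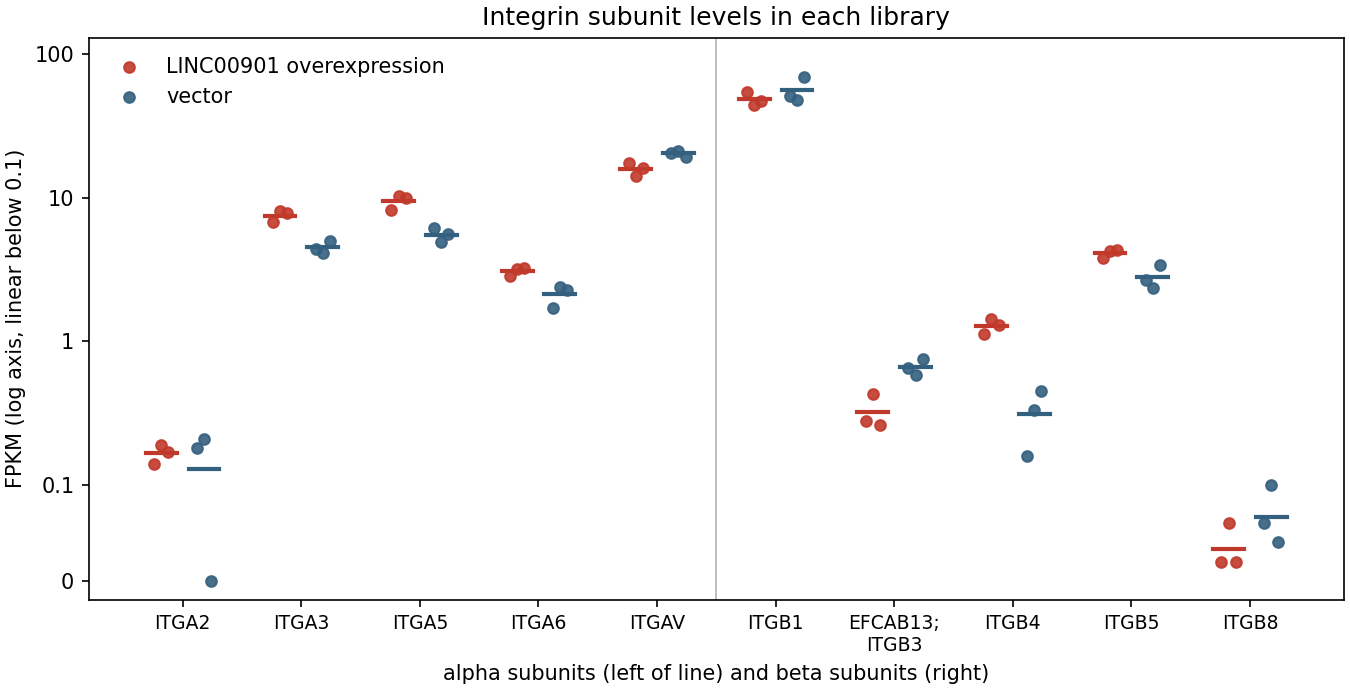
FPKM of the 10 integrin subunits in each library, on a log axis that is linear below 0.1, with points for libraries, bars for group means, overexpression on the left and vector on the right of each gene. ITGB1 is the highest in both groups, ITGA3, ITGA5, ITGA6, ITGB4 and ITGB5 lie higher in every overexpression library than in any vector library, and ITGAV and the joined ITGB3 row lie lower.

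ITGA5 and ITGA3 rose, ITGB4 rose from a low level, and ITGAV fell. ITGA6 and ITGB5 were also called higher on the values as deposited, but not under the other scalings. Of the 10 subunits, 6 passed the filter of a mean of 1 FPKM, and of these 4 were called higher, 1 lower and 1 neither, beside the background of 37.4% and 11.9%. ITGA2, the joined ITGB3 row, ITGB4 and ITGB8 lay below the filter and were read from a fit without it, in which 25.7% of 14518 rows were called higher and 9.68% lower. In that fit the shares were 16.9% and 24.1% with median centring, 14.2% and 14.8% with quantile normalization, and with correction for length and GC 19.1% and 16.4% of 13473 rows. For 7 of the 10 subunits the 2 groups of libraries did not overlap, with the overexpression libraries above for 5 and below for 2. These are bulk samples, in which fewer cells of a type and less RNA per cell cannot be told apart. Among the 14518 rows above 0, such a gap was present for 34.1% upward and 14.9% downward.

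Promoter sequences are shown for the subunit with the largest called rise relative to the median gene above the filter (ITGA5), the subunit called lower (ITGAV) and the most abundant one (ITGB1). Each is the 250 bases before the RefSeq gene start on GRCh38.p14, at chr12:54419267-54419516 (minus strand), chr2:186589806-186590055 (plus strand) and chr10:32958231-32958480 (minus strand), with the Sp1-type GC box GGGCGG, or CCGCCC on the other strand, in capitals.
ITGA5: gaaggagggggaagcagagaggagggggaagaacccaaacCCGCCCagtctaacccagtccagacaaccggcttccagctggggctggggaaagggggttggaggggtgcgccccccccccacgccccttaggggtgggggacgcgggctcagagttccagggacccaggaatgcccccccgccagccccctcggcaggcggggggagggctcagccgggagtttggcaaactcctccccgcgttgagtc
ITGAV: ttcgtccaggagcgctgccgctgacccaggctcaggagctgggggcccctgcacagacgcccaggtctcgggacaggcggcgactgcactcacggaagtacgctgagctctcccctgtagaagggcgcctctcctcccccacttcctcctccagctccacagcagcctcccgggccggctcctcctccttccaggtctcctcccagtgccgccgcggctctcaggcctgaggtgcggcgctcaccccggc
ITGB1: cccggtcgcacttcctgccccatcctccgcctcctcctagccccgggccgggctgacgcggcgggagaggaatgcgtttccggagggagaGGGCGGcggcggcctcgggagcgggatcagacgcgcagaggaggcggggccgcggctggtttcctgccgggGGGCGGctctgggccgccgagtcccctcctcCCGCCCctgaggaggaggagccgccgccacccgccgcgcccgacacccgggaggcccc

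The ITGA5 window held 1 such GC box, the ITGB1 window 3 and the ITGAV window 0. RefSeq promoters matched 7 of the 10 subunits (ITGA2, ITGA5, ITGA6, ITGAV, ITGB1, ITGB5 and ITGB8), and 5 of these 7 held GGGCGG on either strand, against 42.3% of 27305 promoters of the same length. The AP-1 motif TGANTCA was in 0 of the 7 (6.60% of all promoters), the cyclic AMP response element TGACGTCA in 0 (1.77%) and the E-box CACGTG in 1, that of ITGA6 (6.49%). No motif contains another, and no match says only that the letters are absent from this window.

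ITGA5, the alpha chain of the fibronectin receptor, had 8.17, 10.20 and 9.91 FPKM in the overexpression libraries, against 6.12, 4.90 and 5.58 FPKM in the vector libraries. Every overexpression library lay above every vector library. The log2 difference was 0.72 ± 0.13 (SE), or 0.45 relative to the median gene (limma adjusted p = 0.00406). Over the 17 alternatives run for ITGA5, which are other scalings, pseudocounts, filters, variance models, a stricter threshold, a replicate block and each library left out, it stayed between 0.45 and 0.81 and its limma adjusted p between 0.00342 and 0.0295.

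ITGA3, a laminin-binding alpha chain, had 6.73, 8.03 and 7.77 FPKM in the overexpression libraries, against 4.43, 4.14 and 4.97 FPKM in the vector libraries. The groups did not overlap. The log2 difference of ITGA3 was 0.68 ± 0.12 (SE), or 0.41 relative to the median gene (limma adjusted p = 0.00343), and over its 17 alternatives the adjusted p stayed between 0.00296 and 0.0223.

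ITGA6, which forms laminin receptors with ITGB1 or ITGB4, had 2.83, 3.21 and 3.26 FPKM in the overexpression libraries, against 1.71, 2.38 and 2.29 FPKM in the vector libraries. Its log2 difference of 0.46 ± 0.14 (SE), 0.20 relative to the median gene, passed on the deposited values (limma adjusted p = 0.0340). The call was lost with median centring (limma adjusted p = 0.193), quantile normalization (0.122), correction for length and GC (0.0692) and no filter (0.0537), and without overexpression replicate 1 (0.0533), 2 (0.0941) or 3 (0.107) or vector replicate 1 (0.0711).

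ITGAV, the alpha chain of the vitronectin receptors, had 17.49, 14.20 and 16.12 FPKM in the overexpression libraries, against 20.55, 21.27 and 19.26 FPKM in the vector libraries. All 3 overexpression libraries lay below the lowest vector library. The log2 difference was -0.35 ± 0.10 (SE), or -0.61 relative to the median gene (limma adjusted p = 0.0265). ITGAV was also called lower with median centring (log2 -0.56, limma adjusted p = 0.00487), quantile normalization (-0.80, 0.00167) and correction for length and GC (-0.24, 0.0368). On the deposited scale the call was lost without overexpression replicate 2 (limma adjusted p = 0.0681) or 3 (0.0677) and without vector replicate 1 (0.0617) or 2 (0.0708).

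ITGA2, the alpha chain of a collagen receptor, was low in every library, at 0.14, 0.19 and 0.17 FPKM in the overexpression libraries, against 0.18, 0.21 and 0.00 FPKM in the vector libraries. The groups overlapped, and ITGA2 did not pass (limma without filter, adjusted p = 0.627).

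ITGB4, the beta chain of hemidesmosomes, had 1.12, 1.43 and 1.29 FPKM in the overexpression libraries, against 0.16, 0.33 and 0.45 FPKM in the vector libraries. The group means differed 4.09-fold, the largest ratio among the 10 subunits. The log2 difference was 1.14 ± 0.17 (SE), or 0.88 relative to the median gene (limma without filter, adjusted p = 0.00330), and over its 11 alternatives the adjusted p stayed between 0.00330 and 0.0248. ITGB4 overlaps GALK1, a galactokinase gene on the opposite strand, in GENCODE 29. GALK1 stood at 4.59 FPKM in the overexpression libraries and 2.52 FPKM in the vector libraries, and whether counting used strand is not given in the sources used here, so reads in the overlap cannot be told apart.

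ITGB5, which pairs with ITGAV, had 3.83, 4.28 and 4.35 FPKM in the overexpression libraries, against 2.68, 2.36 and 3.42 FPKM in the vector libraries. The log2 difference was 0.50 ± 0.15 (SE), or 0.23 relative to the median gene (limma adjusted p = 0.0275). The call was lost with median centring (limma adjusted p = 0.139), quantile normalization (0.115) and correction for length and GC (0.149), and without overexpression replicate 2 (0.0770) or 3 (0.0873) or vector replicate 1 (0.0673) or 2 (0.0665).

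ITGB1 did not pass on the deposited values, with a log2 difference of -0.19 ± 0.15 (SE), a 95% interval from -0.55 to 0.16 and a limma adjusted p of 0.321. The groups overlapped, and without vector replicate 3, the highest library, the difference was -0.03. Relative to the median gene it was -0.46. With median centring the ITGB1 difference was -0.40 (limma adjusted p = 0.0580), and with quantile normalization it was -0.86 and passed (0.00476).

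The joined EFCAB13;ITGB3 row had 0.28, 0.43 and 0.26 FPKM in the overexpression libraries, against 0.65, 0.58 and 0.75 FPKM in the vector libraries. ITGB3 encodes a beta partner of ITGAV. The groups did not overlap, and the log2 difference was -0.50 ± 0.12 (SE; limma without filter, adjusted p = 0.0224). The call was lost without overexpression replicate 1 (limma adjusted p = 0.0715) or 3 (0.0769) and without vector replicate 3 (0.0526). ITGB8, a partner of ITGAV in the activation of latent TGF-beta, had at most 0.06 FPKM in the overexpression libraries and at most 0.10 FPKM in the vector libraries and did not pass in the fit without filter (limma adjusted p = 0.368). With median centring in that fit ITGB8 was called lower (log2 -0.30, limma adjusted p = 0.0227). Centring lowers the difference of every row by the 0.21 between the library medians, and all ITGB8 values lay far below the pseudocount of 0.5.

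**Figure D2:**
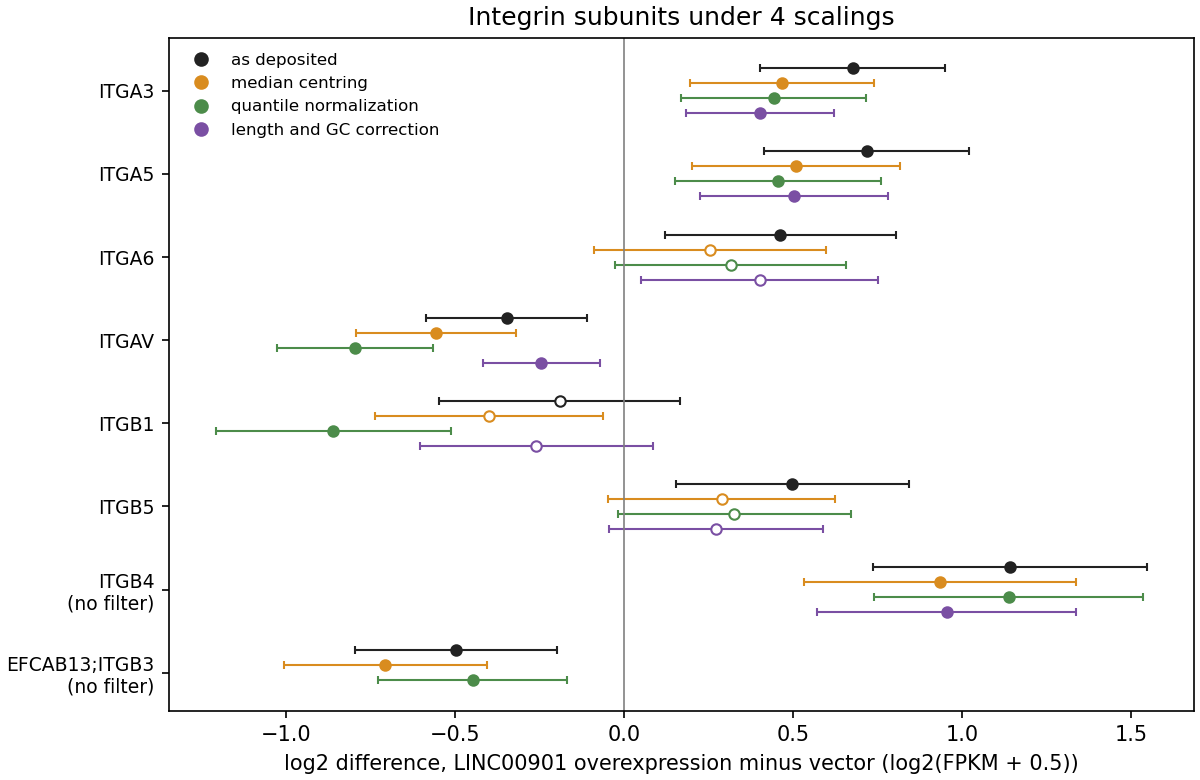
Log2 difference (overexpression minus vector, on log2(FPKM + 0.5)) of 8 subunits with its 95% interval under 4 scalings, from limma over all rows, where filled points passed an adjusted p of 0.05. ITGA3, ITGA5 and ITGB4 are filled and above 0 under each scaling and ITGAV is filled and below 0 under each, while ITGA6 and ITGB5 are filled only for values as deposited and ITGB1 only with quantile normalization. The joined ITGB3 row has no length and so no corrected value.

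The make-up of the alpha subunits was set by a smaller ITGAV share and larger ITGA5 and ITGA3 shares in every overexpression library. Such shares do not depend on a scaling factor common to a whole library. They were not recomputed after quantile normalization or correction for length and GC, which can change them. ITGAV made up 49.5, 39.6 and 43.3% of the summed FPKM of the 5 alpha subunits in the overexpression libraries, against 62.3, 64.7 and 60.0% in the vector libraries. The share of ITGA5 was 26.1% ± 2.72 in the overexpression libraries and 16.9% ± 1.87 in the vector libraries (SD, n = 3 each). For ITGA3 it was 20.8% ± 1.69 in the overexpression libraries and 13.8% ± 1.49 in the vector libraries, and for ITGA6 8.57% ± 0.504 and 6.52% ± 1.16 (SD, n = 3 each). None of these 4 shares overlapped between the groups, with an exact permutation p of 0.1 for each, the smallest that 3 against 3 libraries allow, and 0.125 adjusted over the 10 shares. The summed FPKM of the alpha subunits was 36.1 ± 0.973 in the overexpression libraries and 32.7 ± 0.490 in the vector libraries (SD, n = 3 each).

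Among the beta subunits ITGB1 predominated, with 89.3% ± 1.73 of the summed FPKM in the overexpression libraries and 93.6% ± 0.127 in the vector libraries (SD, n = 3 each). ITGB5 made up 7.69% ± 1.08 in the overexpression libraries and 4.71% ± 0.190 in the vector libraries, and ITGB4 2.38% ± 0.470 and 0.514% ± 0.191 (SD, n = 3 each). These shares did not overlap either (exact permutation p = 0.1, adjusted 0.125). Set against ITGB1 itself, the ITGA5 level was 0.196 ± 0.0407 in the overexpression libraries and 0.101 ± 0.0199 in the vector libraries, and the ITGA3 level 0.156 ± 0.0289 and 0.0815 ± 0.00848 (ratio of FPKM, SD, n = 3 each). Neither ratio overlapped between the groups (two-sided exact permutation p = 0.1, adjusted 0.2 over 6 ratios). The summed alpha subunits over ITGB1 did overlap, at 0.653, 0.806 and 0.785 in the overexpression libraries, against 0.648, 0.681 and 0.463 in the vector libraries (exact permutation p = 0.2, adjusted 0.3). The ratio of ITGAV to ITGB1 also overlapped (exact permutation p = 0.4, adjusted 0.48). It was 0.323, 0.319 and 0.340 in the overexpression libraries, against 0.404, 0.440 and 0.278 in the vector libraries. The ITGA6 ratio was higher without overlap (exact permutation p = 0.1, adjusted 0.2), and the ITGA2 ratio overlapped (0.8, adjusted 0.8).

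**Figure D3:**
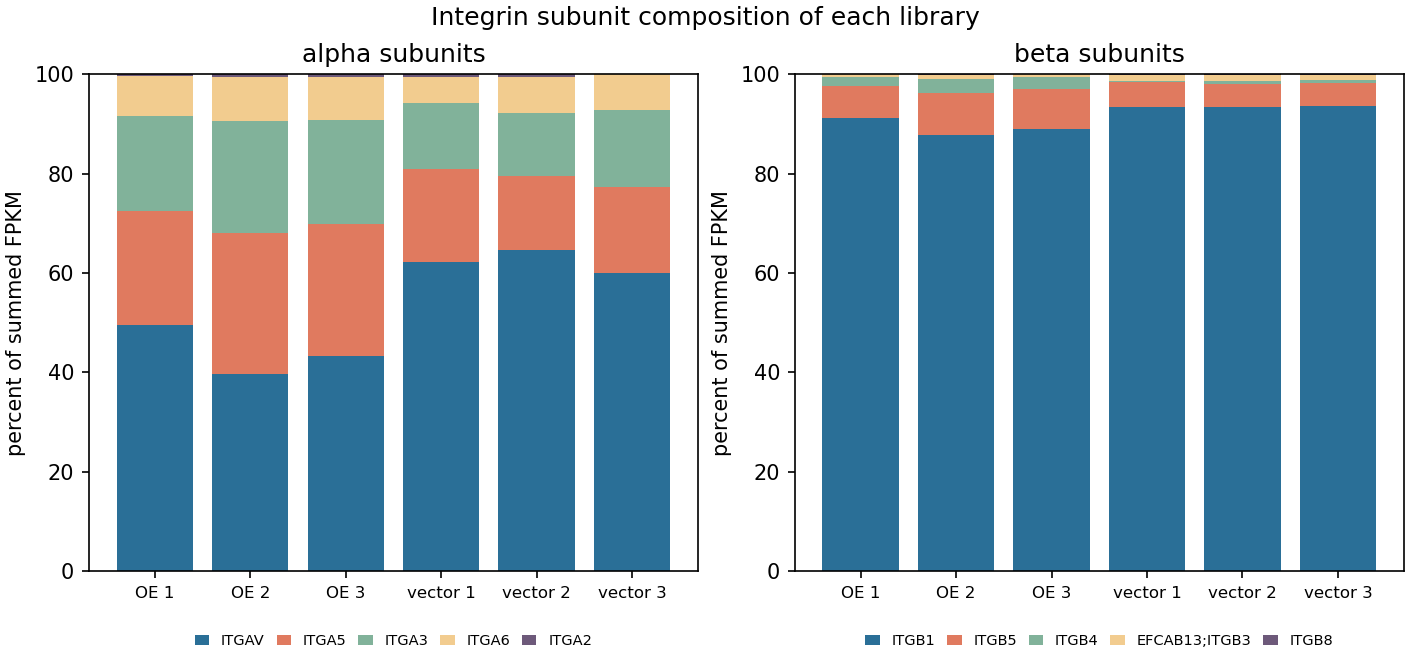
Percent of the summed FPKM of the 5 alpha subunits (left panel) and of the 5 beta subunits (right panel) taken by each subunit, 1 bar per library, overexpression (OE) libraries on the left of each panel. The ITGAV part ends at 49.5% or less in the overexpression libraries and at 60.0% or more in the vector libraries, and ITGB1 fills most of every beta bar.

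GC content of the longest GENCODE 29 transcript was 63.7% for ITGB4, 61.3% for ITGA3, 54.5% for ITGA5 and 54.3% for ITGB5, but 42.9% for ITGA6, 40.0% for ITGB1 and 38.3% for ITGAV. Over all tested rows with a known transcript, the median log2 difference was 0.01 in the lowest of 5 GC bins and 0.52 in the highest. By transcript length it was 0.62 in the shortest of 5 bins and 0.03 in the longest, and ITGA2, ITGAV and ITGB8 were as long as rows of the longest bin. The part of base composition and length in the subunit values was not tested beyond the correction. With the trend on length and GC content removed, the ITGA3 difference was 0.40 (limma adjusted p = 0.0149), that of ITGA5 0.50 (0.0157) and that of ITGB4 0.95 (0.00580, no filter).

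Among the other 16 integrin subunits, 3 passed the filter, and of these 0 were called higher and 2 lower, beside 37.4% and 11.9% of all tested rows. ITGAD, an alpha chain of leukocytes, had 0.73, 1.02 and 0.76 FPKM in the overexpression libraries, against 2.15, 2.05 and 2.81 FPKM in the vector libraries. Its log2 difference was -1.08 ± 0.16 (SE; limma adjusted p = 0.00215). ITGAD passed the filter only through the vector libraries, since its overexpression mean was 0.837 FPKM. In the fit without filter it was also called lower (limma adjusted p = 0.00398). ITGAE, the alpha chain that binds E-cadherin, had 1.86, 0.84 and 1.29 FPKM in the overexpression libraries, against 2.25, 2.09 and 2.58 FPKM in the vector libraries (log2 -0.65 ± 0.22 SE, limma adjusted p = 0.0442). The ITGAE call was lost without any 1 of overexpression replicates 2 and 3 and vector replicates 1, 2 and 3 (limma adjusted p 0.0707 to 0.112), and ITGAE overlaps HASPIN (10.6 FPKM in the overexpression libraries and 10.3 FPKM in the vector libraries) on the opposite strand. It was also lost with a pseudocount of 0.1 (0.0501) and with no filter (0.0666). The joined row PELO;ITGA1 had 1.28, 1.32 and 1.23 FPKM in the overexpression libraries, against 1.04, 0.78 and 0.76 FPKM in the vector libraries, and did not pass (limma adjusted p = 0.0614), except without vector replicate 1 (0.0345) or with limma without the trend (0.0274). The leukocyte beta chains ITGB2 and ITGB7, with which ITGAD and ITGAE pair, reached at most 0.31 and 0.07 FPKM in any library.

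Activators and inhibitors of integrin activation bind integrin tails or, like the GTPase RAP1A, act upstream of proteins that do. Of 17 such genes 11 were tested, and 6 were called higher and 1 lower, beside 37.4% and 11.9% of all tested rows. The median log2 difference was 0.42, beside 0.27 over the 9694 tested rows. With median centring the counts were 5 and 1 (24.0% and 19.2% of all tested rows), and with quantile normalization 4 and 2 (19.2% and 20.9%). The cytoskeletal linker FLNA stood at 70.0 ± 5.24 FPKM in the overexpression libraries and 36.0 ± 2.64 FPKM in the vector libraries (SD, n = 3 each; limma adjusted p = 0.000355). TLN1, the integrin activator talin, named after its values were seen, stood at 25.3 ± 0.660 and 13.3 ± 0.829 FPKM (SD, n = 3 each; limma adjusted p = 0.000310). The integrin inhibitor gene SHARPIN stood at 4.15 ± 0.685 FPKM in the overexpression libraries and 1.75 ± 0.425 FPKM in the vector libraries, and CIB1, which binds alpha tails, at 30.0 ± 2.02 and 14.2 ± 2.20 FPKM (SD, n = 3 each), but neither passed with correction for length and GC (limma adjusted p = 0.171 and 0.0659). In the corrected fit without filter both passed (limma adjusted p = 0.0357 for SHARPIN and 0.00667 for CIB1). ITGB1BP1, a negative regulator that binds the ITGB1 tail, fell, with 5.40, 5.04 and 4.35 FPKM in the overexpression libraries, against 6.50, 7.15 and 7.19 FPKM in the vector libraries (log2 -0.46 ± 0.11 SE, limma adjusted p = 0.0142, and 0.0536 without overexpression replicate 3).

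The ILK-PINCH-parvin complex links beta tails to actin. Of its 7 genes 6 were tested, 4 were called higher and 0 lower (37.4% and 11.9% of all tested rows), with a median log2 difference of 0.50. ILK stood at 26.2 ± 3.09 FPKM in the overexpression libraries and 11.3 ± 0.790 FPKM in the vector libraries, and LIMS1, the PINCH adaptor, at 4.72 ± 0.726 and 2.17 ± 0.876 FPKM (SD, n = 3 each; limma adjusted p = 0.000375 and 0.0121). With median centring 2 were higher and 1 lower (24.0% and 19.2% of all tested rows), since PARVB and RSU1 no longer passed (limma adjusted p = 0.117 and 0.132) and PARVA did (0.0224). The count was 2 higher without overexpression replicate 1 or 3, where 3017 and 2768 of the 9694 tested rows were higher.

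Of 29 genes of the focal adhesion scaffold and of FAK-SRC signalling, 24 were tested, 15 were called higher and 1 lower (37.4% and 11.9% of all tested rows), with a median log2 difference of 0.52. Those called higher include the joined row CDC42;CELA3B;CELA3A, whose value cannot be assigned to any of the genes it names. GIT1, a scaffold that binds paxillin, stood at 11.5 ± 0.578 FPKM in the overexpression libraries and 4.45 ± 0.566 FPKM in the vector libraries (SD, n = 3 each; limma adjusted p = 0.000315). The small GTPase RHOA stood at 188 ± 10.8 FPKM in the overexpression libraries and 85.2 ± 5.84 FPKM in the vector libraries, and the adhesion protein ZYX at 16.6 ± 0.861 and 8.09 ± 0.486 FPKM (SD, n = 3 each). PTK2, the focal adhesion kinase FAK, named after its values were seen, did not pass, at 7.17 ± 0.291 and 7.03 ± 0.553 FPKM (SD, n = 3 each; limma adjusted p = 0.828). BCAR1, the FAK-SRC substrate p130Cas, was called lower, at 3.52 ± 0.332 FPKM in the overexpression libraries and 4.64 ± 0.275 FPKM in the vector libraries (SD, n = 3 each; limma adjusted p = 0.0350), a call lost without overexpression replicate 1 (0.0920) or 2 (0.10) or vector replicate 1 (0.0807) or 3 (0.0836). With quantile normalization 6 of the 24 were called higher and 1 lower (19.2% and 20.9% of all tested rows), and with correction for length and GC 9 of 23 were called higher and 1 lower (22.3% and 17.1%).

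Tetraspanins and other lateral partners sit beside integrins in the membrane. Of 18 such genes 17 were tested, 11 were called higher and 0 lower (37.4% and 11.9% of all tested rows), with a median log2 difference of 0.68. SDC1, a proteoglycan co-receptor, stood at 27.8 ± 1.98 FPKM in the overexpression libraries and 7.96 ± 0.838 FPKM in the vector libraries, and CAV1, the caveolar coat protein, at 12.3 ± 0.950 and 5.84 ± 0.602 FPKM (SD, n = 3 each; limma adjusted p = 0.000116 and 0.000606). With quantile normalization 3 were higher and 0 lower, where 19.2% and 20.9% of all tested rows were, and with correction for length and GC 4 were higher and 2 lower, where 22.3% and 17.1% were. The shares of this list called higher under these scalings were near or below those of all rows. Under both, the laminin-receptor tetraspanin CD151 and the galectin LGALS1 no longer passed. CD151 stood at 16.1 ± 2.87 FPKM in the overexpression libraries and 7.40 ± 3.07 FPKM in the vector libraries (SD, n = 3 each). LGALS1 stood at 175 ± 1.54 and 84.0 ± 8.62 FPKM (SD, n = 3 each). LGALS1 did pass in the corrected fit without filter (limma adjusted p = 0.00479). Without overexpression replicate 1 there was 1 gene lower, where 995 of the 9694 tested rows were lower.

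Hemidesmosome genes were examined beside ITGB4 and ITGA6. Of 9 genes 4 were tested, 3 were called higher and 0 lower (37.4% and 11.9% of all tested rows), with a median log2 difference of 0.74. PLEC, the plectin that anchors ITGB4 to keratins, had a level of 13.6 ± 2.48 FPKM in the overexpression libraries and 5.89 ± 0.399 FPKM in the vector libraries (SD, n = 3 each; limma adjusted p = 0.000997). CD151 is a member of this list too. The collagen gene COL17A1 stood at 4.18 ± 0.193 and 3.14 ± 0.295 FPKM (SD, n = 3 each, limma adjusted p = 0.0311). That call was lost with median centring (limma adjusted p = 0.274), quantile normalization (0.219) and correction for length and GC (0.278). It was also lost without any 1 of the libraries but vector replicate 3 (0.0674 to 0.0926). DST, a plakin, did not pass (limma adjusted p = 0.0963), but was called lower with median centring (0.0128), quantile normalization (0.00346) and without overexpression replicate 1 (0.0483), and its difference was positive with correction for length and GC (log2 0.14, 0.207). With quantile normalization 1 of the 4 was higher and 1 lower (19.2% and 20.9% of all tested rows). With correction for length and GC the counts were 1 and 0 (22.3% and 17.1%). Without overexpression replicate 1 they were 2 and 1, where 3017 and 995 of the 9694 tested rows were higher and lower.

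Of 33 integrin ligands 17 were tested, 9 were called higher and 2 lower, with a median log2 difference of 0.33. The share lower is near the 11.9% of all tested rows, and 37.4% of all tested rows were higher. Those called higher include the joined rows L1CAM;NAA10;ARHGAP4 and ADAM15;DCST1, whose values cannot be assigned to any of the genes they name. The matricellular protein gene CCN1 stood at 62.2 ± 3.48 FPKM in the overexpression libraries and 27.5 ± 2.58 FPKM in the vector libraries (SD, n = 3 each; limma adjusted p = 0.000195). Its relative CCN2 had 3.32, 1.80 and 2.43 FPKM in the overexpression libraries, against 0.00, 0.34 and 0.15 FPKM in the vector libraries (limma adjusted p = 0.000886). COL1A1, a collagen chain, had 1.67 ± 0.280 and 0.583 ± 0.297 FPKM (SD, n = 3 each; limma adjusted p = 0.00913). CCN2 and COL1A1 passed the filter only through the overexpression libraries, since their vector means lay below 1 FPKM. In the fit without filter both were also called higher (limma adjusted p = 0.00157 and 0.0135). The laminin chain LAMB2 fell, with 3.48 ± 0.273 FPKM in the overexpression libraries and 6.41 ± 0.660 FPKM in the vector libraries (SD, n = 3 each; limma adjusted p = 0.00186). COL1A2, named after its values were seen, was called lower, with 13.1 ± 2.69 FPKM in the overexpression libraries and 18.1 ± 0.465 FPKM in the vector libraries (SD, n = 3 each; limma adjusted p = 0.0339). That call was lost with correction for length and GC (limma adjusted p = 0.0549) and without any 1 library but overexpression replicate 2 (0.0605 to 0.0795). FN1, which encodes fibronectin and was named after its values were seen, lay below the filter, at 0.26, 0.68 and 0.53 FPKM in the overexpression libraries, against 1.56, 1.60 and 0.66 FPKM in the vector libraries, with overlapping groups. With median centring the ligand counts were 6 higher and 4 lower (24.0% and 19.2% of all tested rows), and with correction for length and GC 4 and 2 of 15 (22.3% and 17.1%). With no filter, which tests more ligands, 5 were lower, where 9.68% of 14518 rows were. With a mean of at least 5 FPKM, which tests fewer, 3 were higher, where 2396 rows in all were higher. The numbers of ligands tested under these 2 filters are not given here, so the counts cannot be read as shares. In the fits that left out single libraries, 1 ligand was lower without any 1 library but overexpression replicate 2. In these fits 812 to 1004 of the 9694 tested rows were lower.

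Of 33 genes of integrin traffic 30 were tested, 18 were called higher and 0 lower (37.4% and 11.9% of all tested rows), with a median log2 difference of 0.58. Those called higher include the joined rows RAB5C;KAT2A;AC099811 and ACAA2;MYO5B, whose values cannot be assigned to any of the genes they name. RAB7A, a late endosomal GTPase, stood at 66.4 ± 3.76 FPKM in the overexpression libraries and 26.4 ± 6.49 FPKM in the vector libraries, and AP2M1, a clathrin adaptor subunit, at 31.8 ± 1.66 and 13.1 ± 1.65 FPKM (SD, n = 3 each; limma adjusted p = 0.000983 and 0.000278). The intermediate filament gene VIM stood at 577 ± 49.5 FPKM in the overexpression libraries and 229 ± 27.5 FPKM in the vector libraries (SD, n = 3 each). The recycling GTPase ARF6 had 17.04, 14.10 and 23.82 FPKM in the overexpression libraries, and in the vector libraries was listed at 0.00, 6.02 and 0.00 FPKM (limma adjusted p = 0.0137). With quantile normalization 10 were called higher and 2 lower (19.2% and 20.9% of all tested rows), and with correction for length and GC 12 and 1 of 27 (22.3% and 17.1%). With median centring 13 were higher and 1 lower (24.0% and 19.2%). Without overexpression replicate 1 or vector replicate 3, 1 was lower, where 995 and 972 of the 9694 tested rows were lower. Of 9 genes for latent TGF-beta activation 3 were tested, 1 was called higher and 0 lower (37.4% and 11.9% of all tested rows), with a median log2 difference of 0.01. The 1 called higher was the joined row PAK2;NRROS;PIGX. It stood at 20.1 ± 0.481 FPKM in the overexpression libraries and 15.5 ± 1.38 FPKM in the vector libraries (SD, n = 3 each; limma adjusted p = 0.0153), and was not called with median centring (0.20) or without overexpression replicate 3 (0.0584). With quantile normalization its log2 difference was -0.086 (limma adjusted p = 0.496).

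**Figure D4:**
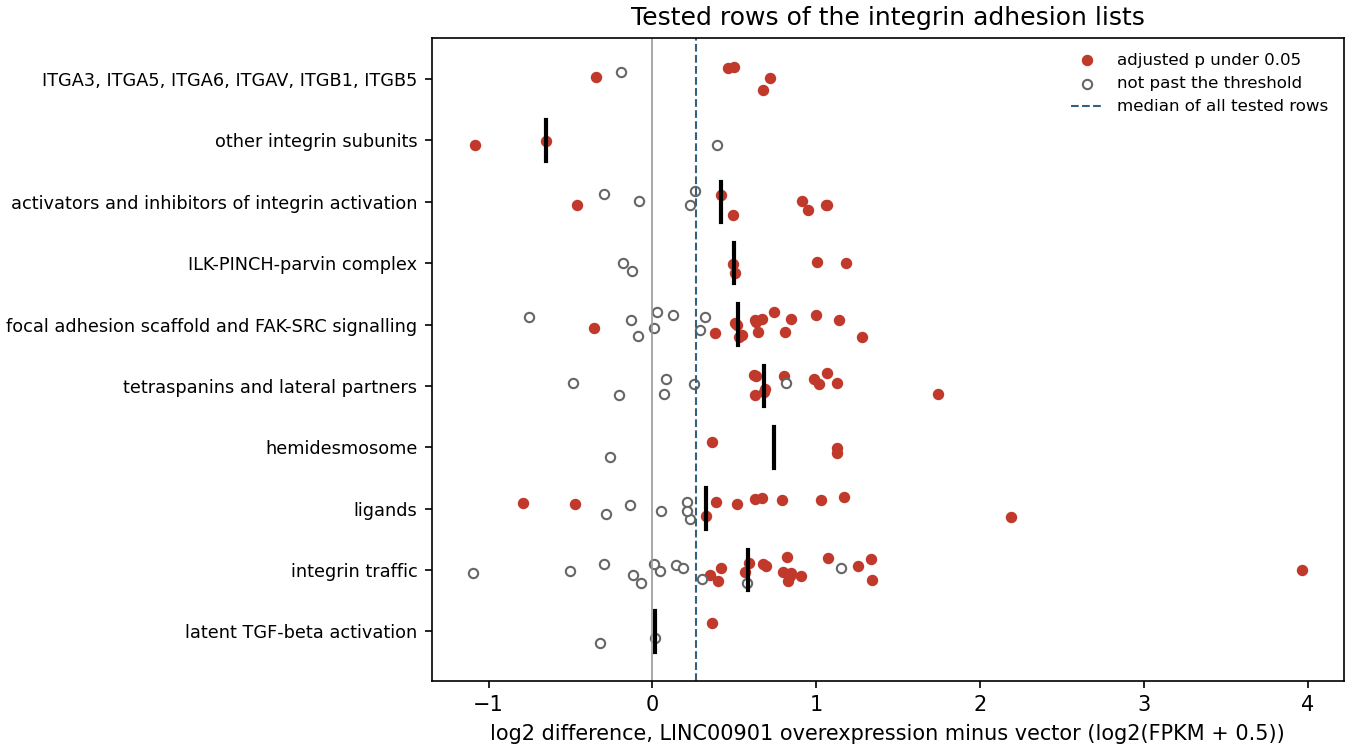
Log2 difference (overexpression minus vector, on log2(FPKM + 0.5)) of every tested row of each adhesion list, with the 6 tested integrin subunits on top, filled points past a limma adjusted p of 0.05, black bars at the list medians and a dashed line at the median of all tested rows (0.27). The list medians range from -0.65 for the other integrin subunits, of which 3 were tested, to 0.74 for the hemidesmosome genes.

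The rows whose pattern over the 6 libraries was most like that of ITGA5 and ITGAV were found by Pearson's r on median-centred log2 values, as a description. For ITGA5 they were ZER1 (r = 0.997), GRAMD4 (0.994) and NBDY (0.994), of 9693 rows compared. ZER1 averaged 9.95 ± 1.23 FPKM in the overexpression libraries and 5.94 ± 0.678 FPKM in the vector libraries (SD, n = 3 each). For ITGAV they were LMBRD2 (0.999), RICTOR (0.998) and RFC3 (0.998).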

How the data were processed

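RNA from 6 libraries was sequenced. The deposited values are FPKM per gene and library. The submitters' processing notes name hg19 and the tools HISAT2, cutadapt and FastQC. No version and no tool for the FPKM step is given in the sources used here. Of 18268 rows, 3750 were 0 in all libraries, including all 13 mitochondrially encoded rows, so a 0 can be a failed estimate. Depth is unknown: products of low FPKM and transcript length showed no whole-read steps (largest mean cosine 0.173 over 6 libraries, where whole reads give 1).

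Rows with a mean of at least 1 FPKM were compared on log2(FPKM + 0.5) with limma 3.58.1 (R 4.3.3), with an intensity trend, no replicate block and Benjamini-Hochberg adjustment over all 9694 rows (threshold 0.05). Shares and ratios were compared by two-sided exact permutation tests. Transcript length and GC content (longest GENCODE 29 transcript by symbol) were known for 91.3% of tested rows, and a loess trend on both was removed as an alternative. The other alternatives were pseudocounts 1 and 0.1, a mean of at least 5 FPKM or no filter, median centring, quantile normalization, limma without trend or robust, an adjusted p of 0.01, the replicate block and each library left out.

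The members and gene lists were chosen with earlier results of these data known. Named were the 10 members, other subunits with 1 FPKM in any library, and up to 4 called, non-overlapping genes of each list by size of change, plus the 3 rows most like ITGA5 and ITGAV. The fit was tested on simulated data.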

Additional observations from a re-analysis of the deposited data

How the results depend on the processing

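Higher and lower calls over all rows numbered 3621 and 1152, but 2331 and 1866 with median centring, 1865 and 2024 with quantile normalization, 1971 and 1513 with correction for length and GC, 2396 and 422 with a mean of at least 5 FPKM and 2287 and 594 at an adjusted p of 0.01. Leaving out single libraries gave 2768 to 3371 higher and 812 to 1004 lower. Of the 6 integrin subunits that passed the filter, 4 were higher and 1 lower. With median centring, quantile normalization, correction for length and GC, a mean of at least 5 FPKM and an adjusted p of 0.01, 2 were higher. ITGA6 and ITGB5 were not tested at a mean of at least 5 FPKM, since their means were 2.61 and 3.49 FPKM. Lower were 2 with quantile normalization (ITGAV and ITGB1) and 0 at an adjusted p of 0.01. With no filter all 10 were tested, and 2 were lower (ITGAV and the joined ITGB3 row). Leaving out single libraries gave 2 to 4 higher and 0 to 1 lower. ITGA3 and ITGA5 kept call and direction in all 17 alternatives and ITGB4 in all 11. The ITGA2 difference (0.10) was -0.11 with median centring and -0.060 to 0.19 with single libraries left out, negative without vector replicate 3, that of ITGB8 (-0.09) 0.031 with correction for length and GC, and that of PAK2;NRROS;PIGX (0.37) -0.086 with quantile normalization. The PTK2 difference (0.03) was -0.18 with median centring, -0.23 with quantile normalization, -0.088 with correction for length and GC and -0.033 to 0.066 with single libraries left out (negative without vector replicate 2), and that of DST (-0.26) was 0.14 with correction for length and GC. Median centring lowers the difference of every row by the 0.21 between the library medians. The cause of the other sign changes was not tested. With all integrin subunits in the sums the ITGAV share differed by -12.9 percentage points, against -18.2 with the 5 alpha subunits. The added alpha rows include ITGAD (means 0.837 FPKM in the overexpression and 2.34 FPKM in the vector libraries) and ITGAE (1.33 and 2.31 FPKM). Both were higher in the vector libraries, while PELO;ITGA1 was higher in the overexpression libraries (1.28 and 0.860 FPKM).

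Same-numbered libraries did not deviate together (r = -0.0370, -0.00574 and -0.00503), and no library correlated best with its own number. With the replicate block 3262 rows were higher and 965 lower, and 4 integrin subunits were higher and 0 lower, with a limma adjusted p of 0.0572 for ITGAV. The block also ended the calls of the joined ITGB3 row (0.0685, without filter), BCAR1 (0.0653), COL1A2 (0.0518), PARVB (0.0520) and COL17A1 (0.0776).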
